A study of Mus musculus with 4 samples.

Results

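The genes of gastric acid secretion were compared in the stomach of 2 mouse strains. A gene entered if a probe of the array carried its symbol and no other: Atp4a, Atp4b, Kcne2, Kcnq1, Car2, Aqp4, Clic6, Ezr, Esrrg or Hrh2. Of these 10 listed genes, 9 were found, on 10 of the 33012 probes of the array (13840 genes are named on it), and each had a probe with a value on all 4 arrays. Aqp4, a water channel of the parietal cell's basolateral membrane, was not analysed here. Esrrg had a second probe (663793), which was blank on all arrays. The tested strain was B6.CAST-17, homozygous congenic mice that by name carry chromosome 17 material of CAST origin on a C57BL/6J background, and it was set against wild-type C57BL/6J. All animals were males on chow, food deprived for 4 h before the whole stomach was taken, and their age is not given in the sources used here. Each array held RNA pooled from 3 animals, with 2 pools per strain, so 6 animals stood behind each strain and single animals could not be compared. Of the 9 genes, only Ezr lies on chromosome 17, the chromosome for which the strain is named.

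Parietal cells acidify the stomach lumen. A potassium-exchanging proton pump, made of a catalytic subunit (Atp4a) and a glycosylated subunit that carries it to the membrane (Atp4b), exports protons against potassium, and a potassium channel (Kcnq1 with Kcne2) returns that potassium to the lumen. Carbonic anhydrase (Car2) supplies protons and bicarbonate. On stimulation through the histamine receptor Hrh2, membranes that hold the pump fuse with the apical canaliculus, which ezrin (Ezr) ties to actin.

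Ezr and Atp4a are shown first by the start of the gene, because Ezr had the largest strain difference of the 9 genes in size and lies on the congenic chromosome, while Atp4a, the pump itself, lies elsewhere. Both windows are RefSeq sequence of C57BL/6J (GRCm38.p6) from 250 bases before the annotated start to 50 after it, and capitals mark the 6-base GC box GGGCGG on either strand. RefSeq windows were matched for 5 of the 10 genes, and the CAST sequence was not used here. The Ezr window is chr17:6782731-6783030, minus strand, and the Atp4a window is chr7:30711959-30712258, plus strand.
Ezr: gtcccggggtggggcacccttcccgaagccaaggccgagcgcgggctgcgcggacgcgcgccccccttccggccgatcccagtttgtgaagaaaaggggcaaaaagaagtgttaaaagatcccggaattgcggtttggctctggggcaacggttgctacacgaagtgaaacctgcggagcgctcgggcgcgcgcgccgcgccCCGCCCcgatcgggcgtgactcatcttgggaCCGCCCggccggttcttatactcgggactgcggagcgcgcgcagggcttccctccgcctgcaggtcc
Atp4a: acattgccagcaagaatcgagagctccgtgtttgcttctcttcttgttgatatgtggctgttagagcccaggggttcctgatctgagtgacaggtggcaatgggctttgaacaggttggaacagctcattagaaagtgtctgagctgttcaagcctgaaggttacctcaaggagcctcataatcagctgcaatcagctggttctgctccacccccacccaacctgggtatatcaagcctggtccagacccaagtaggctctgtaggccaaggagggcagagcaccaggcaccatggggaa
The Ezr window holds 2 such boxes, at positions -48 and -17 from the start, both on the opposite strand, and the Atp4a window holds none. The box does not set Ezr apart. Esrrg, Hrh2 and Kcne2, the other genes with a matched window, held it too, though for Esrrg and Kcne2 not in every window. A GC box on either strand occurs in 35.9% of the 32544 RefSeq windows of this length. The Ezr and Atp4a windows hold neither TATAAA (13.6% of windows) nor AAGGTCA (4.71%). The letters AAGGTCA are the core bound by the nuclear receptor that Esrrg encodes. These matches are letters in a window and were not tested as binding sites.

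None of the 9 genes passed an adjusted p of 0.05 between the strains (limma over all 13475 probes with a value on every array), against 0.475% of all probes. At an adjusted p of 0.1 the count was again 0, against 0.816%. Of the 9, 3 had an unadjusted p under 0.05 (Ezr, Clic6 and Atp4a), against 15.8% of all probes. The strains' pools did not overlap for 5 of the 9, always with the congenic pools lower, against 49.4% of all probes in either direction and 26.1% with the congenic pools lower. The median difference of the 9 was -0.21 on the log2 scale, against -0.0020 over all probes. Differences are congenic minus wild type in log2 signal, ± SE, with n = 2 pools per strain, and levels of different probes are not comparable. In whole-stomach RNA, fewer parietal cells and less RNA per parietal cell cannot be told apart.

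Of the parietal cell markers, Atp4a, Atp4b, Kcne2 and Kcnj15 had a value in all 4 pools. The probe for Slc26a7, a chloride and bicarbonate exchanger of the parietal cell, was blank in all 4. Atp4a, Atp4b and Kcne2 are themselves among the genes compared, so they give no separate check of parietal cell content. Outside those genes only Kcnj15 was left, with a difference of 0.034 ± 0.092 and overlap between strains. Markers of neighbouring organs did differ with strain. All 6 measured exocrine pancreas markers rose, against 0.289% of all probes, and their mean log2 signal was 15.64 and 15.58 in the congenic pools, against 13.03 and 12.93 in the wild-type pools. Of 5 liver markers 2 passed an adjusted p of 0.05 in limma, both higher in the congenic pools, against 0.289% of all probes. The liver mean was 13.68 and 13.66 in the congenic pools, against 12.52 and 12.6 in the wild-type pools. All 5 liver differences were positive, and 4 had an unadjusted p under 0.05 in limma, against 15.8% of all probes. Of 6 skeletal muscle markers 3 passed, all lower in the congenic pools, against 0.186% of all probes. The skeletal muscle mean was 12.19 and 12.21 in the congenic pools, against 13.51 and 13.63 in the wild-type pools. All 6 skeletal muscle differences were negative, each with an unadjusted p under 0.05 in limma. For the other gland cells none passed: 0 of 4 chief cell markers (mean 17.28 and 17.27 in the congenic pools, against 16.83 and 17.1 in the wild-type pools), 0 of 4 pit and neck mucous markers (17.97 and 17.35 congenic, against 17.65 and 17.83 wild type) and 0 of 5 enteroendocrine markers (17.83 and 17.77 congenic, against 18.08 and 18.12 wild type). Of the mucous markers, Gkn2 read 21.25 in all 4 pools, the maximum of the table, and so could show no difference. All 5 enteroendocrine differences were negative (median -0.32). Of these, 3 had an unadjusted p under 0.05 in limma, against 15.8% of all probes: Gast, Ghrl (-0.43) and Chgb (-0.32). Chga (-0.095) and Sst (-0.075) lay nearer to no difference. All 4 chief cell differences were positive (median 0.27), and 1 had an unadjusted p under 0.05. None of 5 smooth muscle markers (mean 16.13 and 16.12 congenic, against 16.23 and 16.28 wild type) or 6 forestomach markers (17.43 and 17.44 congenic, against 17.5 and 17.47 wild type) passed. The 5 smooth muscle differences were all negative too (median -0.075), and 2 had an unadjusted p under 0.05. Of the forestomach differences, 4 were negative and 2 positive. The part of these tissues in the differences below was not tested.

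Neither subunit of the pump passed. Atp4a had log2 signals of 19.58 and 19.51 in the congenic pools, against 19.77 and 19.75 in the wild-type pools. Both congenic pools lay below both wild-type pools. The difference was -0.21 ± 0.079 (0.862-fold, 95% interval 0.753 to 0.986), with an adjusted p of 0.2878 in limma. Atp4b, which lets the pump leave the endoplasmic reticulum, had 18.81 and 18.82 in the congenic pools, against 18.81 and 18.74 in the wild-type pools. Congenic pool 1 and wild-type pool 1 held the same value, so the strains overlapped. The difference was 0.041 ± 0.075 (1.03-fold, 95% interval 0.906 to 1.17; limma adjusted p = 0.8163). The log2 signal of the Atp4a probe over that of Atp4b was 0.77 and 0.70 in the congenic pools, against 0.97 and 1.01 in the wild-type pools. This within-array ratio was 0.26 lower in the congenic pools and did not overlap between strains. An exact two-sided permutation test gave p = 0.333, the smallest p that 2 pools against 2 allow. Every ratio without overlap gives this p, so the test could not decide.

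**Figure D1:**
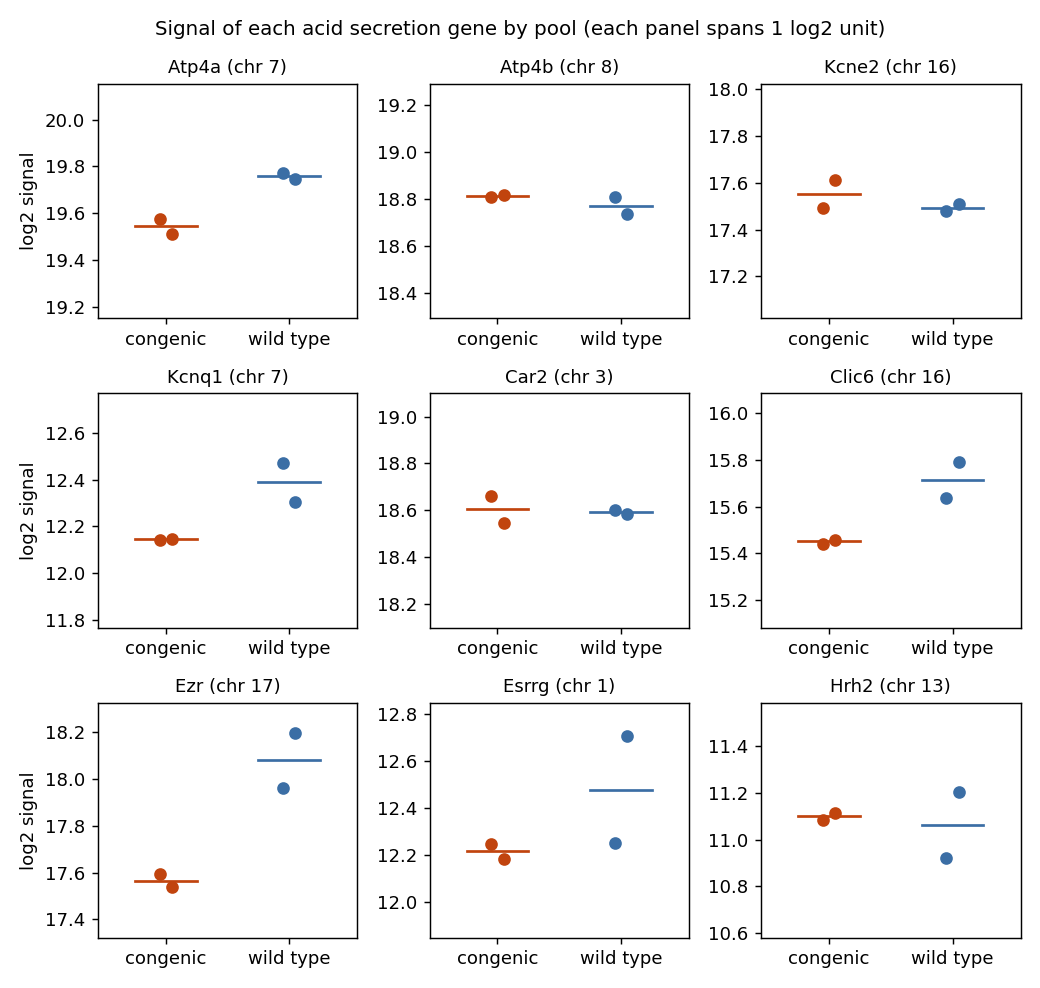
Log2 signal (vertical axis) of each of the 9 acid secretion genes in the congenic pools (left, orange) and wild-type pools (right, blue). Points are pools, bars are strain means of 2 pools, and each panel spans 1 log2 unit. The strains do not overlap for Atp4a, Kcnq1, Clic6, Ezr and Esrrg.

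The potassium channel that recycles potassium to the pump has a pore subunit, Kcnq1, and an accessory subunit, Kcne2, which keeps the pore open in acid. Kcne2 had log2 signals of 17.49 and 17.61 in the congenic pools, against 17.48 and 17.51 in the wild-type pools. The strains overlapped, and the 95% interval of the difference, 0.914-fold to 1.19-fold, leaves room for a small change in either direction (0.059 ± 0.077; limma adjusted p = 0.733). Kcnq1 had 12.14 and 12.15 in the congenic pools, against 12.47 and 12.31 in the wild-type pools. The congenic pools lay lower and were 0.0047 apart, against 0.17 between the wild-type pools. The difference was -0.24 ± 0.12 (95% interval 0.683-fold to 1.04-fold; limma adjusted p = 0.4003). The ratio of the Kcne2 probe to the Kcnq1 probe was 5.35 and 5.46 on the log2 scale in the congenic pools, against 5.01 and 5.20 in the wild-type pools.

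Car2, the cytosolic carbonic anhydrase that feeds the pump, had the smallest difference of the 9 genes. Its log2 signals were 18.66 and 18.55 in the congenic pools, against 18.60 and 18.58 in the wild-type pools. The wild-type values lay between the congenic ones, and the difference was 0.011 ± 0.079 (95% interval 0.881-fold to 1.15-fold; limma adjusted p = 0.9603). Clic6, a member of the intracellular chloride channel family first described in rabbit parietal cells under the name parchorin, had 15.44 and 15.46 in the congenic pools, against 15.64 and 15.79 in the wild-type pools. Both congenic pools lay below both wild-type pools. The difference was -0.26 ± 0.082 (0.833-fold, 95% interval 0.725 to 0.958), with an unadjusted p of 0.01847 and an adjusted p of 0.2418 in limma.

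Ezr, the actin linker of the apical membrane, had the largest difference in size among the 9. Its log2 signals were 17.59 and 17.54 in the congenic pools, against 17.96 and 18.19 in the wild-type pools. The strains did not overlap, and the gap of 0.056 between the congenic pools was smaller than the gap of 0.23 between the wild-type pools. The difference was -0.51 ± 0.097 (0.701-fold, 95% interval 0.594 to 0.826). By unadjusted p (0.001881) Ezr stood at rank 176 of the 13475 probes, with an adjusted p of 0.143 in limma, and 2.74% of probes had a difference as low or lower. Over the 10 alternative fits the Ezr difference lay between -0.63 and -0.40 and the adjusted p between 0.06254 and 0.4508 in limma. Set against the mean of the other 8 genes in the same pool, the Ezr signal was 1.91 and 1.86 in the congenic pools, against 2.22 and 2.37 in the wild-type pools, a difference of -0.41. The mean of the other 8 genes was itself 0.10 lower in the congenic pools, and their median difference was -0.10.

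**Figure D2:**
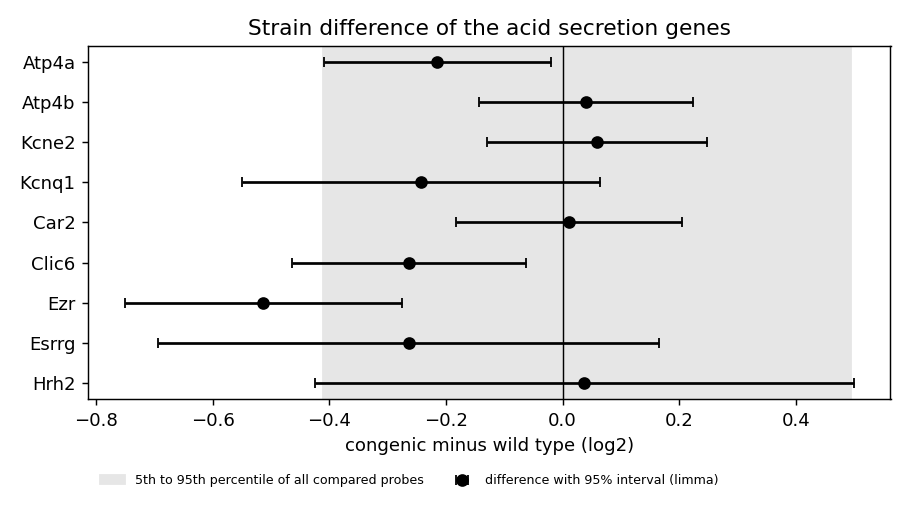
Congenic minus wild-type difference in log2 signal (horizontal axis) for each acid secretion gene, with its 95% interval from limma (2 pools per strain). The grey band spans the 5th to the 95th percentile of all compared probes, -0.41 to 0.49. Only the point for Ezr lies outside the band.

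The regulators were the least precise. Esrrg, a nuclear receptor that drives expression of acid secretion and oxidative genes in mouse parietal cells, had log2 signals of 12.25 and 12.18 in the congenic pools, against 12.25 and 12.71 in the wild-type pools. Wild-type pool 2 stood above the other 3 pools, and the strains were separated by only the gap between congenic pool 1 and wild-type pool 1. The difference was -0.26 ± 0.17 (95% interval 0.619-fold to 1.12-fold; limma adjusted p = 0.4969) and was -0.035 without wild-type pool 2. Hrh2, the histamine receptor that acid-suppressing drugs block, had 11.09 and 11.11 in the congenic pools, against 10.92 and 11.20 in the wild-type pools. The congenic values lay between the wild-type ones. The 95% interval, 0.745-fold to 1.41-fold, was the widest of the 9 (0.037 ± 0.19; limma adjusted p = 0.9381).

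Ezr was then read against the genes beside it. It is the 7th of 379 measured genes in the order of chromosome 17, where 5.22% of named probes passed in limma, against 0.266% of named probes on other chromosomes. The congenic pools lay below the wild-type pools without overlap for 37.1% of the named chromosome 17 probes. The neighbours did not move one way. The measured gene just before Ezr was Dynlt1b, a dynein light chain. It rose to 17.25 and 17.21 in the congenic pools, against 15.88 and 15.86 in the wild-type pools (1.36 ± 0.068, limma adjusted p = 0.001356). Just after Ezr, the next measured gene was Rnaset2b, a secreted ribonuclease. It fell to 16.73 and 16.75 in the congenic pools, against 17.33 and 17.48 in the wild-type pools (-0.67 ± 0.080, limma adjusted p = 0.03707). Rnaset2b did not pass without congenic pool 1 or without congenic pool 2 (limma adjusted p = 0.2309 and 0.244), without a variance trend (0.2333) or with the replicate block (0.1037). Dynlt1b and Rnaset2b each belong to a family with near-identical copies, which makes their values uncertain. The 4 further neighbours did not pass: Snx9 (-0.34 ± 0.089) and Cep43 (-0.16 ± 0.16) were negative, and Gtf2h5 (0.35 ± 0.19) and Sft2d1 (0.51 ± 0.10) were positive. Sequence differences between the strains under the Ezr probe were not tested.

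**Figure D3:**
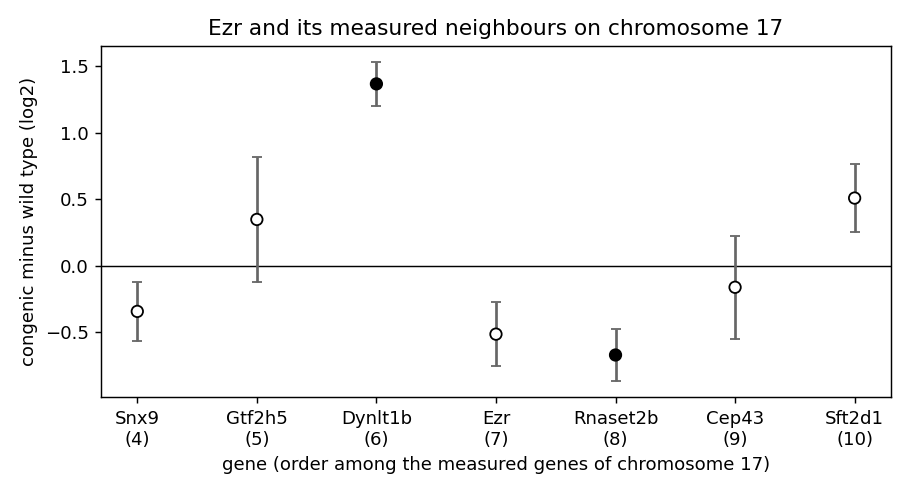
Congenic minus wild-type difference in log2 signal (vertical axis) for Ezr and the 3 nearest measured genes on each side, in the gene order of chromosome 17 (horizontal axis, with the order number in brackets). Bars are 95% intervals from limma, and filled points passed an adjusted p of 0.05. Dynlt1b lies above 0 and Rnaset2b below it.

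The patterns most like those of Ezr and Atp4a over the 4 arrays were sought among all named genes, by the Euclidean distance between log2 values centred on each gene's mean. Nearest to Ezr were Cox8b (distance 0.038), Lrp5 (0.045) and Nxn (0.046), none of which lies on chromosome 17. Their differences were -0.53, -0.49 and -0.51. Nearest to Atp4a were Vangl1 (0.0087), Sowahb (0.011) and the smooth muscle gene Tagln (0.016), with differences of -0.22, -0.21 and -0.20. Of the 6 nearest genes none passed in limma. With 4 arrays such nearness is a description of these values.

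Related genes were grouped by role in 7 lists. Of 116 listed genes, 74 were measured on all arrays, and 0 passed an adjusted p of 0.05 in limma. At an adjusted p of 0.1 the count was 1, Clic3. An unadjusted p under 0.05 was reached by 19 of the 74 (25.7%), 14 with a negative and 5 with a positive difference, against 15.8% of all probes. The median difference of the 74 was -0.050. The count of each list below is to be read beside the same 15.8%, and no list was tested as a set.

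Among ion transport partners, 0 of 9 measured genes passed, 4 had an unadjusted p under 0.05, and the median was 0.0061. Slc4a2, the basolateral exchanger that takes up chloride as bicarbonate leaves the parietal cell, had log2 signals of 16.23 and 16.25 in the congenic pools, against 16.65 and 16.80 in the wild-type pools. The strains were well separated compared with the gaps within them, and the difference was -0.49 ± 0.079 (0.713-fold; limma unadjusted p = 0.0008516, adjusted p = 0.1016). Cftr, a chloride channel also known from pancreatic ducts, had 12.09 and 12.05 in the congenic pools, against 11.58 and 11.47 in the wild-type pools. The difference was 0.55 ± 0.14 (limma adjusted p = 0.1879). The exocrine pancreas markers were higher in the congenic pools too, and a link between them and Cftr was not tested. The potassium channel subunit Kcnj16 differed by -0.26 ± 0.089 and the chloride channel Clcn2 by -0.26 ± 0.097.

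Of the receptors and signalling genes that control acid output, 0 of 12 passed, 3 had an unadjusted p under 0.05, and the median was -0.065. Gast, which encodes gastrin, the hormone that stimulates acid secretion, had 17.99 and 18.09 in the congenic pools, against 18.52 and 18.74 in the wild-type pools (-0.59 ± 0.099; limma adjusted p = 0.113). Sstr2, a receptor for the inhibitory hormone somatostatin, had 12.73 and 12.87 in the congenic pools, against 13.22 and 13.24 in the wild-type pools (-0.43 ± 0.10; limma adjusted p = 0.1827). For both genes all congenic values lay below all wild-type values, as they did for 26.1% of all probes. The enteroendocrine markers other than Gast were negative as well, though Sst (-0.075) overlapped between strains. Prkar1a, a regulatory subunit of protein kinase A, differed by 0.19 ± 0.075 and Ptger3, a prostaglandin receptor, by 0.36 ± 0.20.

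Among genes of the membrane traffic that brings the pump to the surface, 0 of 14 passed, 5 had an unadjusted p under 0.05, and the median was -0.096. The small GTPase Arf6 differed by -0.29 ± 0.072, the endosomal sorting protein Hgs by -0.34 ± 0.087 and the membrane-scission GTPase Dnm2 by -0.49 ± 0.13. Cltc, the clathrin heavy chain, differed by 0.28 ± 0.070 in the other direction. The limma adjusted p of these 4 lay between 0.1879 and 0.1967.

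Of the ezrin family and its partners, 0 of 7 passed, 2 had an unadjusted p under 0.05, and the median was 0.093. Slc9a3r1, the scaffold that binds ezrin under the apical membrane, had log2 signals of 15.71 and 15.62 in the congenic pools, against 15.91 and 15.94 in the wild-type pools (-0.26 ± 0.073; limma adjusted p = 0.2149). The actin regulator Eps8 differed by 0.31 ± 0.10, and Slc9a3r2, a second scaffold and a gene of chromosome 17, by 0.12 ± 0.094. Msn, the ezrin paralog moesin, had 12.50 and 12.27 in the congenic pools, against 11.06 and 12.43 in the wild-type pools. Its difference of 0.64 ± 0.42 rests on wild-type pool 1 and was -0.042 without it, while without wild-type pool 2 it was 1.33 (limma adjusted p = 0.04641). That fit sets wild-type pool 1 alone against the congenic pools, which give all of its within-strain spread, so the lone pool is assumed to vary as they do. Radixin, the remaining paralog, was not analysed here.

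Among paralogs of the 10 listed genes, Aqp4 included, 0 of 21 passed and the median was -0.0033. Of the 21, 4 had an unadjusted p under 0.05 in limma, against 15.8% of all probes. Clic3, a relative of Clic6, had 14.26 and 14.20 in the congenic pools, against 14.78 and 14.74 in the wild-type pools (-0.53 ± 0.077; limma adjusted p = 0.07431). Clic5, a chromosome 17 relative of Clic6 whose protein is known to associate with ezrin, had 10.33 and 10.04 in the congenic pools, against 10.91 and 11.62 in the wild-type pools. The congenic pools were lower, but the wild-type pools lay 0.71 apart, and the difference was -1.08 ± 0.29 (limma adjusted p = 0.2081). Clic1, also on chromosome 17, differed by -0.12 ± 0.090 and overlapped between strains. The carbonic anhydrase Car9 differed by -0.26 ± 0.079 and the water channel Aqp8 by 0.52 ± 0.18.

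The oxidative metabolism list that accompanies Esrrg had a median of -0.055, and 0 of its 9 measured genes passed, with 0 at an unadjusted p under 0.05 in limma. Cs, citrate synthase, had 17.70 and 17.68 in the congenic pools, against 16.45 and 17.56 in the wild-type pools, so its difference of 0.69 ± 0.33 rests on wild-type pool 1. Without wild-type pool 2 it was 1.24 (limma adjusted p = 0.002199), in a fit whose spread again comes from the congenic pools alone. The transcription factors Nrf1 (0.20 ± 0.11) and Tfam (0.083 ± 0.089) and the dehydrogenase subunit Idh3a (-0.086 ± 0.084) did not pass. Of growth factors known from parietal cells, 2 were measured. Vegfb had 15.53 and 15.57 in the congenic pools, against 15.89 and 15.89 in the wild-type pools (-0.34 ± 0.069; limma adjusted p = 0.1533), and Hbegf differed by -0.27 ± 0.17.

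**Figure D4:**
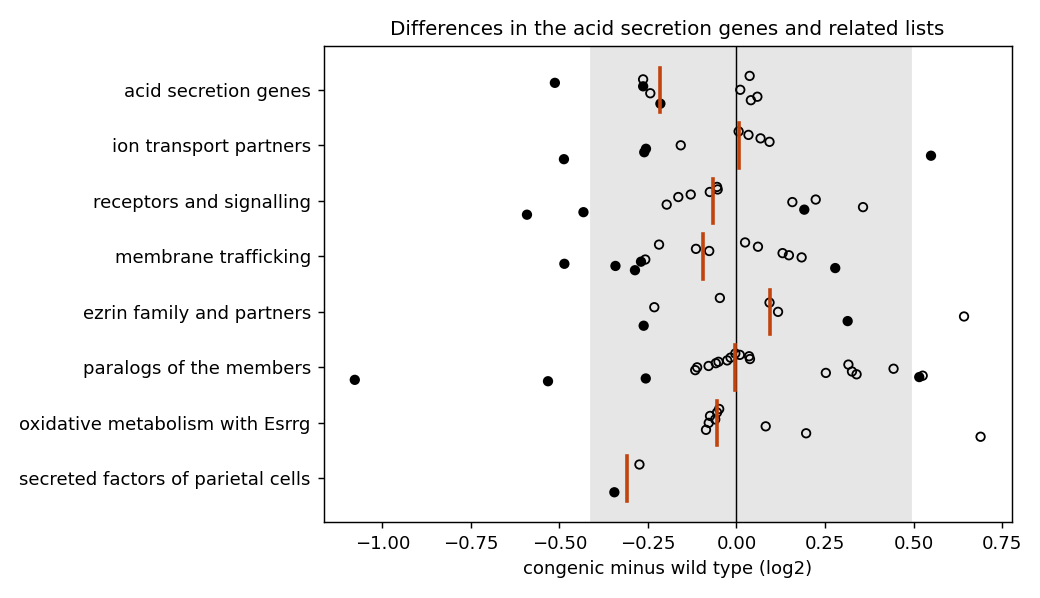
Congenic minus wild-type difference in log2 signal (horizontal axis) for the 9 acid secretion genes and the measured genes of the 7 related lists (rows). Points are genes, filled where the unadjusted limma p was under 0.05, orange bars are medians, and the grey band spans the 5th to the 95th percentile of all compared probes. Medians lie between -0.31 for the 2 secreted factors and 0.093 for the ezrin family and partners.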

How the data were processed

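Total RNA of the stomach was labelled with digoxigenin and read on single-colour chemiluminescent arrays, per the labels' protocols. The deposited table holds 1 value per probe and array. It was taken as log2 signal because the values lie between 6.73 and 21.2, and no source used here gives the authors' normalization, log base, blank rule or saturation flags. The 4 arrays share their maximum. Gene symbols came from the platform's annotation table (14411 of 33012 probes with 1 symbol, 7907 of the 13475 compared), and gene order came from GRCm38.p6.

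A linear model of strain was fitted to each probe in limma 3.58.1 (R 4.3.3), with eBayes moderation along the variance trend. Residual degrees of freedom were 2 and prior ones 3.97. Tests were two-sided, and p-values were adjusted by Benjamini-Hochberg across the 13475 probes with a value on 4 arrays. The fit was tested on simulated data. The number of arrays limits the precision. Each p-value rests on pool-to-pool spread and not on that of single animals.

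The genes and lists were chosen with earlier results of these data known. Genes named are the 10 listed genes, list genes that passed, up to 4 per list by p, the 3 measured neighbours of Ezr on each side, the 3 genes most like Ezr and Atp4a, and the relatives Clic1, Clic5, Msn and radixin. Slc26a7 and Kcnj15 were named as parietal cell markers. Chosen after their values were seen were Gkn2, Ghrl, Chgb, Chga, Sst, Cblif, Smim11, Kcne1 and Rcan1. Where a gene had several probes, the one with the highest mean was used. Same-numbered pools did not deviate together (r = -0.064 across probes), so the number was not used to pair them. Alternatives were quantile normalization, median centring, no variance trend, the replicate block, leaving out each pool, leaving out dim probes, allowing 1 blank, an adjusted p of 0.1 and averaging the probes of a gene. Figures were drawn with matplotlib 3.10.9.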

Additional observations from a re-analysis of the deposited data

How the results depend on the processing

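No acid secretion gene passed in limma under any alternative fitted for it. Kcnq1, Esrrg and Hrh2 had no value where probes below the median level were left out. Of the 9 genes, 3 changed sign when 1 pool was left out, all with differences near 0: Car2 lay between -0.048 and 0.069 (negative without congenic pool 1), Kcne2 between -0.0023 and 0.12 (negative without congenic pool 2), and Hrh2 between -0.10 and 0.18 (negative without wild-type pool 1). Of the related genes, only those picked for naming by p or as relatives were followed through these fits. Among them Msn changed sign too (-0.042 to 1.33), and the remaining list genes were not followed singly. Over all probes, 64 passed, against 110 at an adjusted p of 0.1, 20 without a variance trend, and between 15 and 168 when 1 pool was left out (15 and 27 when congenic pool 1 or 2 was omitted, and 168 when wild-type pool 2 was). With the replicate block 35 passed, and the block changed the call of no acid secretion gene. It ended the call of Rnaset2b. Without wild-type pool 2, 1 gene of the ezrin list (Msn) and 1 of the oxidative metabolism list (Cs) passed, where the count was otherwise 0. In such fits the lone pool is assumed to vary like the other strain's pools. List medians were the same with the mean over a gene's probes, but almost all list genes had only 1 probe, so little could change. With 2 pools per strain, the unadjusted 95% interval included 0 for 6 of the 9 genes.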

Other observations

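Kcne2 and Clic6 are close neighbours on chromosome 16, at places 232 and 236 of its 254 measured genes, and were looked at together after their values had been seen. The log2 ratio of the Kcne2 probe to the Clic6 probe was 2.05 and 2.15 in the congenic pools, against 1.84 and 1.72 in the wild-type pools. Of the 3 measured genes between them, Smim11 had log2 signals of 13.96 and 13.95 in the congenic pools, against 14.15 and 14.23 in the wild-type pools (-0.24 ± 0.083; limma adjusted p = 0.2718). Kcne1, another accessory subunit of the Kcnq1 channel, differed by 0.32 ± 0.30, and Rcan1, an inhibitor of calcineurin, by 0.10 ± 0.097. None of these genes passed in limma.

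Wild-type pool 1 read lowest of the 4 pools for Cblif, as it did for Msn and Cs. Cblif, which encodes gastric intrinsic factor and is made by chief cells in the mouse, had 20.20 and 20.24 in the congenic pools, against 19.02 and 20.14 in the wild-type pools. None of the 9 acid secretion genes had a wild-type pool 1 value that far from the other pools.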
